A study of Mus musculus with 10 samples.

Results

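The genes examined were *Ly6a*, *Anxa1*, *Clu*, *Il33* and *Spp1*, 5 genes that mark the fetal-like state of regenerating gut epithelium, taken by symbol from a count table of 47069 genes. Each symbol matched a single row, and each of the 5 passed the filter on low counts that left 16179 genes for testing. They were followed in 10 RNA-seq libraries labelled as mouse intestinal organoids. By that label these are gut epithelium grown as hollow structures in Matrigel, here with Noggin, EGF and R-spondin-1 (NER medium) for 50 days. Genes of other cells were counted in every group, as given below. Strain was given as C57BL/6. By the study's methods the cultures came from Lgr5-EGFP-CreERT2 mice with floxed *Ppp2r1a*, so the floxed allele was shared by all groups. *Ppp2r1a* encodes the scaffold subunit of the phosphatase PP2A, and Cre is driven by *Lgr5*, a gene of crypt stem cells, and acts once tamoxifen is given.

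There were 2 libraries in each of 5 groups: control (saline), DMBA (a carcinogen that damages DNA, labelled long), tamoxifen labelled short (TAM short), tamoxifen labelled long (TAM long), and DMBA with tamoxifen (DMBA+TAM). Neither short nor long is explained, nor is the term dosage-sensitive that both tamoxifen labels carry. Groups were taken from the description labels, since the sample titles name neither DMBA nor tamoxifen: NS for control, NL for DMBA, DSS_S for TAM short, DSS_L for TAM long and Lgr5 for DMBA+TAM. None of them is explained as a sample title. The paper uses DSS for dextran sulfate sodium, in citing work on mouse colitis, and Lgr5 for the stem cell gene. It ties neither to the titles of these libraries. By title, the control and TAM short libraries thus share a closing S and the DMBA and TAM long libraries a closing L, and DMBA+TAM has neither. TAM short against control and TAM long against DMBA therefore stay within a letter, and elsewhere letter and treatment cannot be told apart. The labels only number the replicates. The organoid methods speak of triplicates and repeated experiments without naming the sequenced libraries, so whether these came from separate cultures or animals is not given, and p-values measure the spread between these libraries.

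When crypts are injured, the epithelium that closes the wound switches for a time to genes of the fetal gut, a response that depends on the transcriptional coactivator YAP and its partners, the TEAD factors. *Ly6a* encodes Sca-1, a lipid-anchored surface protein, and is the usual marker of this state, while *Clu*, for the secreted chaperone clusterin, marks rare cells that rebuild the crypt. *Anxa1* encodes annexin A1, which binds membranes in the presence of calcium and signals through formyl peptide receptors. *Il33* encodes an alarmin of the IL-1 family that is kept in the nucleus and freed by damage, and *Spp1* encodes osteopontin, a secreted ligand of integrins and CD44. None of them belongs to epithelium alone. Fibroblasts and endothelium can transcribe *Ly6a* and *Il33*, myeloid cells *Anxa1*, macrophages *Spp1*, and follicular dendritic cells of lymphoid tissue *Clu*.

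Totals of counts on genes ran from 8828247 to 10923673 in the 8 libraries outside DMBA+TAM and were 1592366 and 1915270 in DMBA+TAM, where 3 counts stand for 1.58 and 1.32 normalized CPM (counts scaled to a common library total with trimmed mean of M-values factors). The targeted gene *Ppp2r1a* lay between 123 and 169 normalized CPM in the 10 libraries, with 129 and 133 in DMBA+TAM and 123 and 129 in control; reads of its floxed exons cannot be separated in a count per gene. The epithelial label did not hold in DMBA+TAM. The sum over 10 epithelium genes was 22.9 and 33.3 normalized CPM there against 19009 to 19836 in control, with *Epcam*, the cell adhesion molecule of gut epithelium, at 3 counts in each DMBA+TAM library. Over 12 fibroblast genes the sum was 33410.4 to 34142 in DMBA+TAM against 1394 to 1544 in control, and over 8 macrophage genes 6956 to 7354 against 209.5 to 266. Genes of other cells were counted in the other 8 libraries too. There smooth muscle genes summed to 1209 to 12836 normalized CPM and lymphocyte genes to 463 to 1490. Hence the 5 genes are called by their names here and not by a cell type.

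**Figure D1:**
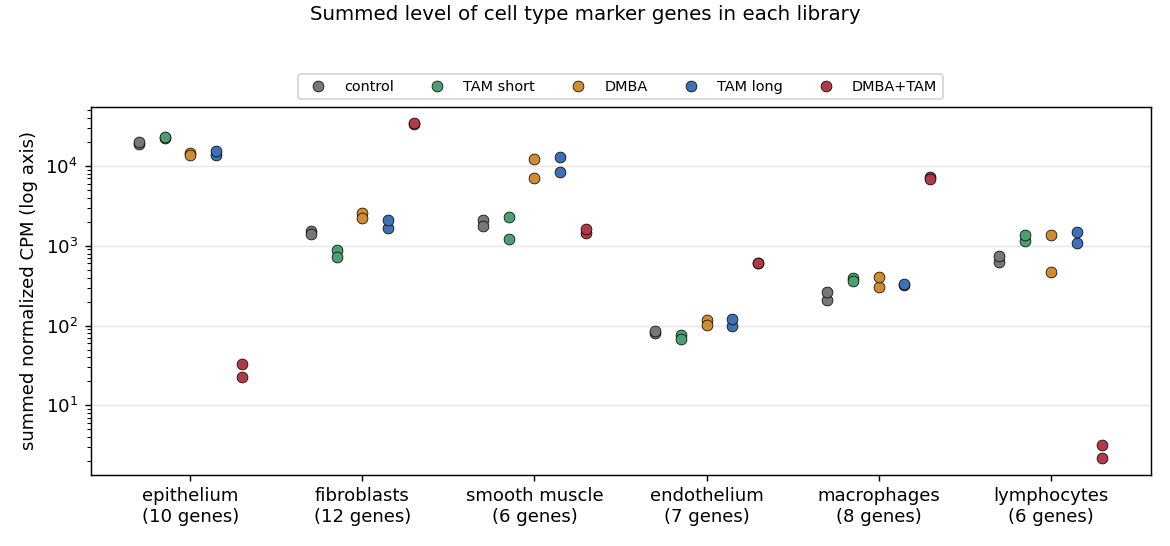
Summed normalized CPM (log axis) of cell type marker genes in each of the 10 libraries, coloured by group, for 6 lists, with the number of genes summed under each name. In DMBA+TAM the epithelium sum is 22.9 and 33.3 and the lymphocyte sum 2.20 and 3.17, while the fibroblast, macrophage and endothelium sums lie above those of the other groups.

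The 5 genes lie on 4 chromosomes of the mouse genome build GRCm38 and are protein coding. *Ly6a* (ENSMUSG00000075602) spans chr15:74994877-74998031 on the minus strand, *Clu* (ENSMUSG00000022037) spans chr14:65968483-65981548 on the plus strand and *Spp1* (ENSMUSG00000029304) spans chr5:104435118-104441050 on the plus strand. *Anxa1* (ENSMUSG00000024659, chr19:20373428-20390944, minus strand) and *Il33* (ENSMUSG00000024810, chr19:29925114-29960718, plus strand) share chromosome 19. Of the 50-base windows of *Ly6a* transcripts, 19% also occur in transcripts of *Ly6c1*, *Ly6c2*, *Ly6i* or I830127L07Rik, so the assignment of such reads is uncertain. Of the windows of *Spp1*, 11.6% occur in Gm42793, which overlaps it on the same strand, and *Anxa1* overlaps 1500015L24Rik on the opposite strand; whether strand was used in counting is not given in the sources used here.

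RefSeq promoters of GRCm38.p6 were at hand for 3 of the 5 genes, with 2 start sites each for *Il33* and *Spp1*. They are shown because these genes took different courses across the groups and because TEAD factors bind the letters GGAATG. The first start site of each gene is given as the 250 bases before it, 5′ to 3′ on the strand of the gene, with GGAATG or its reverse complement CATTCC in capitals. They span chr19:20390672-20390921 (*Anxa1*, minus strand), chr19:29924863-29925112 (*Il33*, plus strand) and chr5:104434861-104435110 (*Spp1*, plus strand).
Anxa1: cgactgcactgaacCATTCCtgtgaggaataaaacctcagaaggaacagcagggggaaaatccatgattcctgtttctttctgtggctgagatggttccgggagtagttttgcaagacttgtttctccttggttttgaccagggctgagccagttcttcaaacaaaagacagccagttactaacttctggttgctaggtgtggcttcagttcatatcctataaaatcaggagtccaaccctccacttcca
Il33: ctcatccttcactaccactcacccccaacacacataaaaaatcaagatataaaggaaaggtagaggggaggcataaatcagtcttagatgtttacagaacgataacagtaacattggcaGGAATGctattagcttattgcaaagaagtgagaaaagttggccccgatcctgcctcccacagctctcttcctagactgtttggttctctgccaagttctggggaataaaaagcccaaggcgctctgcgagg
Spp1: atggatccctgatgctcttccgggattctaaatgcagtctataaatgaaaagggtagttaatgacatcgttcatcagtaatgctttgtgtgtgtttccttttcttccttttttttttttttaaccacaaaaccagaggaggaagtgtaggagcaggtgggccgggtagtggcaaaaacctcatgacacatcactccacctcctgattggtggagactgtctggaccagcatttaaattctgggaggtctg

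Counted back from the start site, the letters lie at -236 to -231 in *Anxa1*, on the opposite strand, and at -131 to -126 in *Il33*. The second start site of *Il33* also has them on the opposite strand, at -107 to -102, and neither start site of *Spp1* has them. Of 32851 mouse promoters of this length, 12.6% hold GGAATG on either strand. TGANTCA, bound by AP-1 factors, and TTCNNNGAA, bound by STAT factors, were searched on both strands in the same 5 windows and found in none, against 6.75% and 7.02% of all promoters. Such a match is a run of letters and no more.

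**Figure D2:**
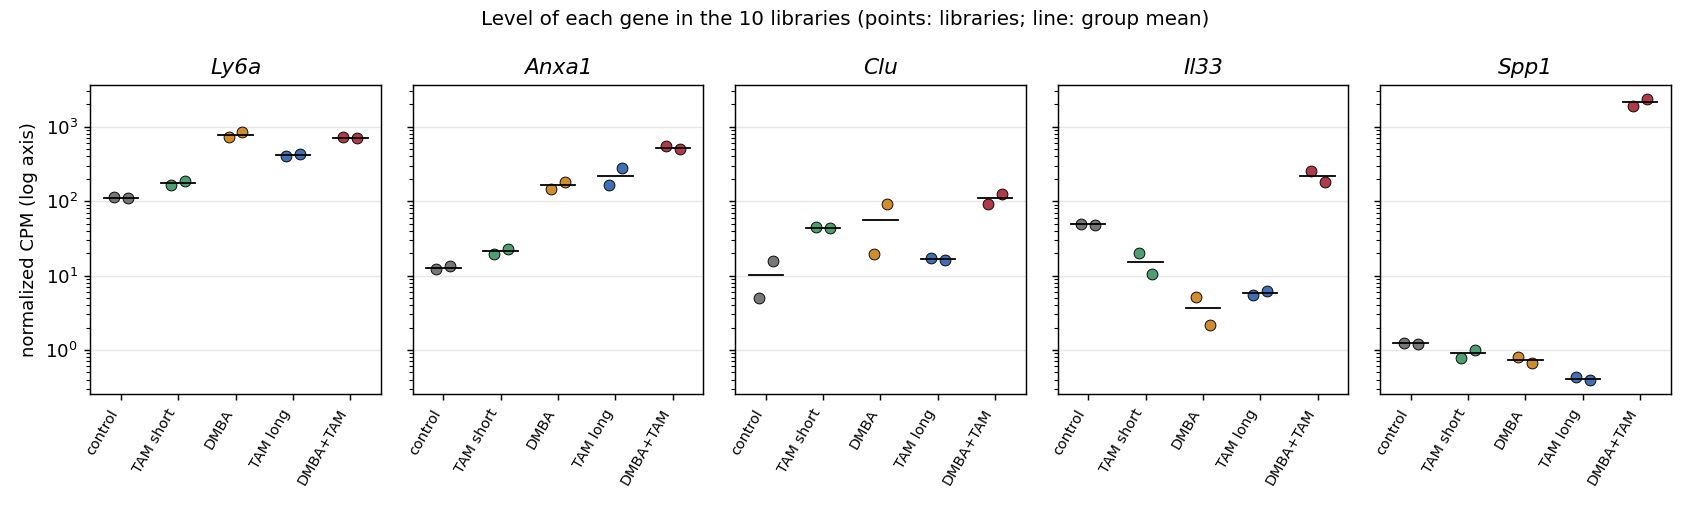
Level of *Ly6a*, *Anxa1*, *Clu*, *Il33* and *Spp1* in normalized CPM (log axis) in each of the 10 libraries (points) with the mean of each group of 2 (line). *Ly6a* and *Anxa1* are lowest in control and TAM short, *Il33* is lowest in DMBA and TAM long, and *Spp1* is near 1 normalized CPM or under it in the groups other than DMBA+TAM.

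*Ly6a* was higher in DMBA, TAM long and DMBA+TAM than in control and TAM short, the groups whose titles close with S. Its level was 113 and 111 normalized CPM in the control libraries, 166 and 187 in TAM short, 408 and 436 in TAM long, 720.05 and 849.8 in DMBA, and 722 and 695 in DMBA+TAM. The control libraries were lowest and did not overlap with any other group, while DMBA and DMBA+TAM overlapped. Against control, *Ly6a* rose 7.03-fold in DMBA (log2 fold change 2.81 ± 0.14 SE, adjusted p = 6.57e-07), 6.34-fold in DMBA+TAM (2.66 ± 0.14, adjusted p = 1.31e-07), 3.78-fold in TAM long (1.92 ± 0.13, adjusted p = 4.27e-06) and 1.58-fold in TAM short (0.66 ± 0.13, adjusted p = 0.0088). These and the following adjusted p-values come from the quasi-likelihood test of edgeR, adjusted by Benjamini-Hochberg over 16179 genes and called under 0.05. The comparisons against control share its 2 libraries. Of them only TAM short stays within a title letter, so in the others, for each gene, letter and treatment cannot be told apart. The call for TAM short was lost without control 1, control 2 or TAM short 2 (adjusted p = 0.0659, 0.0823 and 0.104).

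Among the groups with high *Ly6a*, TAM long stood below the others. It was lower than DMBA by 0.90 ± 0.13 on the log2 scale (adjusted p = 0.00935), a comparison within a title letter, and DMBA+TAM was higher than TAM long by 0.75 ± 0.13 (adjusted p = 0.000737). The lower level in TAM long than in DMBA was not called without TAM long 1 (adjusted p = 0.114) or when only these groups were fitted (adjusted p = 0.163). DMBA+TAM against DMBA gave -0.15 ± 0.13 (adjusted p = 0.351), and the sign turned, to 0.045, with scaling by library size alone. So of the 4 steps in the order DMBA, DMBA+TAM, TAM long, TAM short, control, only the first did not exceed the spread between libraries.

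*Anxa1* rose in the same groups and had its highest level in DMBA+TAM. It had 12.2 and 13.2 normalized CPM in control, 19.4 and 22.8 in TAM short, 147 and 181 in DMBA, 166 and 276 in TAM long, and 545 and 502 in DMBA+TAM. The DMBA+TAM libraries were higher than the others, DMBA and TAM long overlapped, and control lay below every other library. Against control the fold was 41.1 in DMBA+TAM (log2 fold change 5.36 ± 0.26, adjusted p = 1.06e-07), 17.3 in TAM long (4.12 ± 0.25, adjusted p = 1.99e-06) and 12.9 in DMBA (3.69 ± 0.25, adjusted p = 3.6e-06). TAM short was not called (0.73 ± 0.24, adjusted p = 0.0739), although it passed in 7 of 11 alternatives, DESeq2 among them (adjusted p = 0.0383). DMBA+TAM was above DMBA by 1.68 ± 0.22 (adjusted p = 0.000129) and above TAM long by 1.25 ± 0.22 (adjusted p = 0.000829), whereas the difference of TAM long from DMBA did not exceed the spread (0.43 ± 0.21, adjusted p = 0.307).

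*Il33* took the opposite course in DMBA and in tamoxifen alone. Its level was 49.1 and 48.4 normalized CPM in control, 19.998 and 10.3 in TAM short, 5.52 and 6.19 in TAM long, 5.18 and 2.13 in DMBA, and 255 and 183 in DMBA+TAM. No TAM short, TAM long or DMBA library reached the control level, and both DMBA+TAM libraries exceeded it. Against control, *Il33* fell by 3.69 ± 0.38 on the log2 scale in DMBA (adjusted p = 5.06e-05), by 3.06 ± 0.36 in TAM long (adjusted p = 0.000118) and by 1.68 ± 0.33 in TAM short (adjusted p = 0.00934). It rose 4.48-fold in DMBA+TAM (2.16 ± 0.32, adjusted p = 0.00021). The fall in DMBA was 4.53 without DMBA 1, and the fall in TAM short was not called without control 1, control 2 or TAM short 2 (adjusted p = 0.0684, 0.0726 and 0.113) or by limma on log2(FPKM + 0.1) (adjusted p = 0.0543).

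Set beside single treatments, *Il33* in DMBA+TAM was 58.0-fold higher than in DMBA (log2 fold change 5.86 ± 0.40, adjusted p = 1.35e-06; 6.66 without DMBA 1), 37.3-fold higher than in TAM long (5.22 ± 0.38, adjusted p = 1.95e-06) and 14.3-fold higher than in TAM short (3.84 ± 0.35, adjusted p = 7.25e-06). TAM long was below TAM short by 1.38 ± 0.37 (adjusted p = 0.0135), a call that did not hold with limma or without TAM short 1, TAM long 1 or TAM long 2 (adjusted p = 0.158, 0.0832 and 0.0626). TAM long against DMBA was not called (0.64 ± 0.41, adjusted p = 0.441), although the libraries did not overlap, and was 1.45 without DMBA 1 and 0.18 without DMBA 2.

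*Spp1* was near the limit of detection in 8 libraries and high in the remaining 2. The counts were 11 and 10 in control, 7 and 8 in TAM short, 9 and 6 in DMBA, 5 and 4 in TAM long, and 3600 and 5352 in DMBA+TAM. In normalized CPM, control had 1.24 and 1.20, TAM short 0.791 and 1.009, DMBA 0.804 and 0.674, TAM long 0.431 and 0.393 and DMBA+TAM 1900.3 and 2358. DMBA+TAM thus stood apart from every other library, although its totals were the smallest. The fold was 1717 against control (log2 fold change 10.75, adjusted p = 5.11e-09), 2338 against TAM short (11.19, adjusted p = 4.5e-09), 2799.8 against DMBA (11.45, adjusted p = 8.34e-09) and 4964 against TAM long (12.28, adjusted p = 3.79e-09). The other side of each ratio is a handful of counts, and limma on log2(FPKM + 1) gave 10.39 against TAM short, 10.42 against DMBA and 10.71 against TAM long.

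Among the groups with little *Spp1*, control was the highest. TAM long was below control by 1.53 on the log2 scale (adjusted p = 0.0125), with 5 and 4 counts against 11 and 10. The value ran from -1.61 to -0.49 under the alternatives and from -1.61 to -1.48 when a library was left out. The call did not hold in every alternative and rests on a handful of counts. Neither DMBA (-0.71, adjusted p = 0.212) nor TAM short (-0.45, adjusted p = 0.573) was called against control. In DMBA+TAM levels this low would amount to less than 3 counts, so differences of this size were not detectable at that depth.

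*Clu* was the least steady of the 5. Its level was 4.97 and 15.7 normalized CPM in control, 44.5 and 43.0 in TAM short, 19.4 and 92.4 in DMBA, 17.3 and 16.0 in TAM long, and 91.8 and 126 in DMBA+TAM. The DMBA libraries differed 4.77-fold and the control libraries 3.15-fold, and DMBA overlapped with TAM short and with DMBA+TAM. *Clu* rose 10.6-fold in DMBA+TAM against control (log2 fold change 3.41 ± 0.69, adjusted p = 0.00161), with 2.77 without control 1 and 4.42 without control 2, and 6.54-fold against TAM long (2.71 ± 0.65, adjusted p = 0.00567). It rose 5.41-fold in DMBA against control (2.44 ± 0.66, adjusted p = 0.0129), but the value was 0.91 without DMBA 2 (adjusted p = 0.124), 1.82 without control 1 (adjusted p = 0.106), 3.15 without DMBA 1 and 3.47 without control 2. It was not called either when only these groups were fitted (adjusted p = 0.0592).

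The other comparisons of *Clu* were not called. TAM short was above control by 2.09 ± 0.66 (adjusted p = 0.0644) with both libraries higher than both control libraries, and it passed in 4 of 11 alternatives, with 1.48 without control 1 and 3.13 without control 2. TAM long against control gave 0.70 ± 0.67, adjusted p = 0.42, with 0.08 without control 1 and 1.73 without control 2, and it passed only without the filter (adjusted p = 0.00277). DMBA+TAM against TAM short gave 1.32 ± 0.62, adjusted p = 0.0888, and it passed in 5 of 11 alternatives, among them scaling by library size alone (1.72, adjusted p = 0.0278). TAM long against DMBA gave -1.74 ± 0.62, adjusted p = 0.165, with -2.47 without DMBA 1 (adjusted p = 0.00613) and -0.22 without DMBA 2. DMBA+TAM against DMBA gave 0.97 ± 0.61, adjusted p = 0.205, with 2.47 without DMBA 2 (adjusted p = 0.00156) and 0.24 without DMBA 1. TAM long against TAM short gave -1.39 ± 0.62, adjusted p = 0.0995, with libraries that did not overlap, and it passed in 3 of 11 alternatives. Thus no neighbours in the order DMBA+TAM, DMBA, TAM short, TAM long, control were called apart by edgeR, although TAM short and TAM long did not overlap, nor did TAM long and control.

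The uneven *Clu* libraries were uneven in genes of B cells as well. *Cd79a*, of the B cell receptor, had 2.04 and 10.6 normalized CPM in control, 1.70 and 21.3 in DMBA, 17.5 and 19.2 in TAM short, 4.40 and 2.75 in TAM long, and 0.528 and 0.881 in DMBA+TAM. Thus the libraries with more *Clu* within control and within DMBA also had more *Cd79a*, whereas DMBA+TAM, the group with the highest mean of *Clu*, had at most 2 counts of it in a library. Looked at after the *Clu* values were seen, *Cr2*, a complement receptor of B cells and follicular dendritic cells, had 0.113 and 5.06 in control, 0.0893 and 10.3 in DMBA and 0 counts in both DMBA+TAM libraries, and *Ms4a1* and *Fcer2a*, also higher in control 2 than control 1 and in DMBA 2 than DMBA 1, had at most 1 count in a DMBA+TAM library. Their part in the *Clu* values of control, DMBA and TAM short was not tested.

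**Figure D3:**
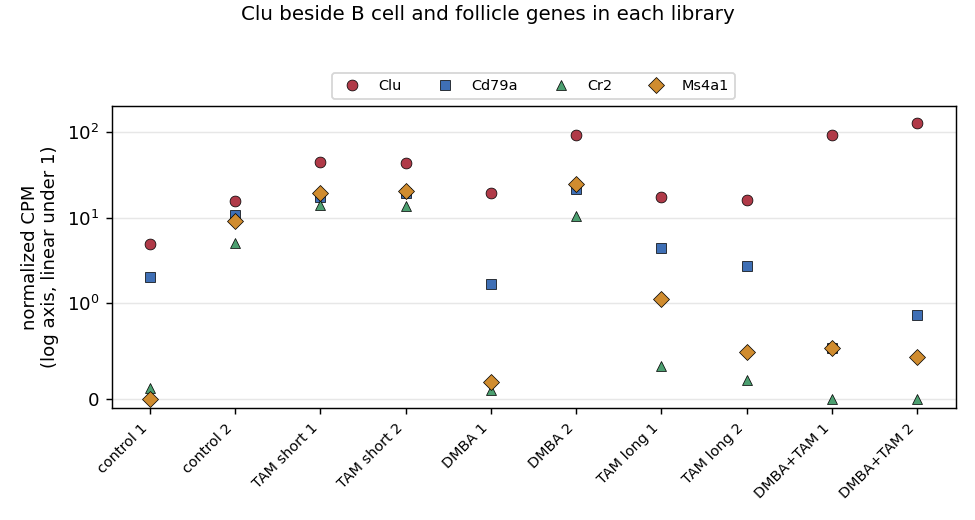
Normalized CPM (log axis, linear under 1) of *Clu* and of 3 genes of B cells and follicles, *Cd79a*, *Cr2* and *Ms4a1*, in each library. The 3 genes are high in control 2, DMBA 2 and the TAM short libraries, where *Clu* is 15.7, 92.4, 44.5 and 43.0. They are lower in control 1, DMBA 1 and the TAM long libraries, where *Clu* is 4.97, 19.4, 17.3 and 16.0. They are also low in DMBA+TAM, where *Clu* is 91.8 and 126.

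Between DMBA+TAM and control the 5 genes differed in one direction: 5 of 5 were higher, where 29% of all tested genes were called higher, 35.3% lower and 64.3% in either direction. The median over the 5 was 3.41 on the log2 scale beside -0.17 over all tested genes. Scaling by library size alone moved the latter to 0.31 and the calls over all genes from 4687 higher and 5709 lower to 6254 and 3755, with 5 of the 5 still higher. Against TAM long 5 were higher, where 25.3% of all genes were higher, 29.9% lower and 55.2% called. Against TAM short 4 were higher, *Clu* not being called, where 29.3% of all genes were higher, 33.8% lower and 63.1% called. Against DMBA 3 were higher, without *Ly6a* and *Clu*, where 25.2% of all genes were higher, 29.9% lower and 55.1% called. Library size scaling also turned the balance of all genes in these comparisons, to 4665 higher and 3929 lower against TAM long, 6021 and 3768 against TAM short, and 4742 and 3916 against DMBA.

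With a single agent the 5 genes did not move together. In DMBA against control *Ly6a*, *Anxa1* and *Clu* were higher and *Il33* lower, where 24.5% of all tested genes were higher, 23.3% lower and 47.8% called. In TAM long against control *Ly6a* and *Anxa1* were higher and *Il33* and *Spp1* lower, where 23.2% of all genes were higher, 22.8% lower and 46% called. The call of *Spp1* there rests on 5 and 4 counts against 11 and 10. In TAM short against control *Ly6a* was higher and *Il33* lower, where 6.52% of all genes were higher, 7.8% lower and 14.3% called. Beside these 2 calls, *Anxa1* and *Clu* were also called with the replicate number as a block, with scaling by library size alone, without the filter and with only these groups fitted, 4 calls in each. Over all genes the calls were 2317 of 16179, and 2322 with the block, 2184 with library size scaling, 3294 of 26392 without the filter and 4317 of 13928 with only these groups.

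**Figure D4:**
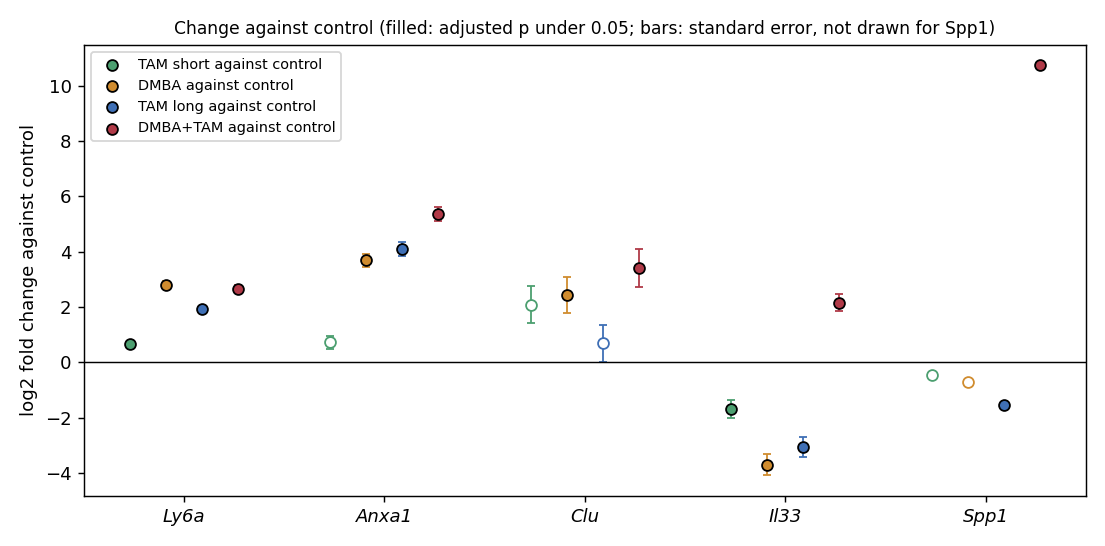
Log2 fold change of each gene against control in TAM short, DMBA, TAM long and DMBA+TAM, with bars for the standard error (not drawn for *Spp1*) and filled points where the adjusted p is under 0.05. *Ly6a* and *Anxa1* lie above 0 in the 4 comparisons, while *Il33* and *Spp1* lie above 0 in DMBA+TAM and below it in the others.

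Between groups that held a single agent, TAM long against DMBA called *Ly6a* alone, lower in TAM long, where 1.24% of all tested genes were higher, 1.46% lower and 2.7% called. Across letters, DMBA against TAM short had *Ly6a* (2.15 ± 0.13, adjusted p = 3.58e-06) and *Anxa1* (2.96 ± 0.24, adjusted p = 1.51e-05) higher and *Il33* lower by 2.02 ± 0.39 (adjusted p = 0.00231), where 24.5% of all genes were higher, 21.8% lower and 46.2% called. The fall of *Il33* there was 2.85 without DMBA 1. TAM long against TAM short had *Ly6a* (1.26 ± 0.13, adjusted p = 7.46e-05) and *Anxa1* (3.39 ± 0.24, adjusted p = 9.89e-06) higher and *Il33* lower, where 22% of all genes were higher, 20.3% lower and 42.2% called.

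Whether tamoxifen came with another change when DMBA was present was asked by an interaction. This is the log2 change from DMBA to DMBA+TAM less that from control to TAM long. Both changes cross title letters, so tamoxifen and letter cannot be told apart in it. The epithelium sum also differed, with 13565 to 14442 normalized CPM in DMBA and 22.9 and 33.3 in DMBA+TAM. The interaction was called for 4 of the 5 genes, where 21.6% of all tested genes were higher, 26.5% lower and 48.2% called. It was 12.98 for *Spp1* (adjusted p = 3.77e-08) and 8.91 ± 0.54 (adjusted p = 9.2e-07) for *Il33*, which fell from control to TAM long and rose from DMBA to DMBA+TAM. Without DMBA 1 the value for *Il33* was 9.74, and limma on log2(FPKM + 1) gave 8.22 for *Il33* and 10.91 for *Spp1*. The interaction was -2.06 ± 0.18 for *Ly6a* (adjusted p = 1.12e-05), whose value was 1.92 from control to TAM long and -0.15 from DMBA to DMBA+TAM. It was -2.44 ± 0.32 for *Anxa1* (adjusted p = 0.000164), with 4.12 and 1.68, and 0.27 ± 0.91 for *Clu* (adjusted p = 0.831). With TAM short in place of TAM long the value was 0.94 for *Anxa1* (adjusted p = 0.0393), -0.81 for *Ly6a*, 7.53 for *Il33*, 11.90 for *Spp1* and -1.12 for *Clu* (adjusted p = 0.343). With TAM long and without DMBA 2, *Clu* had 1.78 (adjusted p = 0.0307).

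Levels may be set between genes only per length. Per kilobase of the listed gene length, the control libraries had most *Ly6a* (117 ± 1.34 normalized CPM per kilobase, SD, n = 2), followed by *Il33* (19.2 ± 0.182), *Anxa1* (7.60 ± 0.438), *Clu* (5.70 ± 4.17) and *Spp1* (0.812 ± 0.0185). In DMBA+TAM the order was *Spp1* (1413 ± 215), *Ly6a* (742 ± 19.5), *Anxa1* (313 ± 18.4), *Il33* (86.0 ± 20.05) and *Clu* (60.02 ± 13.2). In DMBA *Ly6a* had 822 ± 96.1, *Anxa1* 97.9 ± 14.7, *Clu* 30.9 ± 28.5, *Il33* 1.44 ± 0.847 and *Spp1* 0.490 ± 0.0609. *Spp1* was therefore last of the 5 in control and first in DMBA+TAM, while *Ly6a* was first in control and in DMBA. The distances between genes depend on the length used: in the deposited FPKM, which rest on other lengths for these genes, DMBA+TAM had 955 ± 58.7 for *Anxa1* beside 1073 ± 31.2 for *Ly6a* and 2378 ± 355 for *Spp1*.

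Markers of other cells moved as well, in both directions. In DMBA+TAM against control 11 of 12 fibroblast genes, 8 of 8 macrophage genes and 6 of 7 endothelium genes rose and 10 of 10 epithelium genes fell, where 29% of all tested genes were higher and 35.3% lower. Of 6 smooth muscle genes 2 rose and 3 fell, and of 6 lymphocyte genes 0 rose and 4 fell. Mesothelium had 1 of 4 higher and 3 lower. Endothelium summed to 606 to 612 normalized CPM in DMBA+TAM against 80.6 to 86.7 in control. In bulk RNA fewer cells of a type and less RNA per cell cannot be told apart. *Thy1*, of fibroblasts, went from 7.46 and 6.50 to 642 and 725 (log2 fold change 6.61, adjusted p = 5.21e-09), and *Adgre1*, of macrophages, from 5.54 and 9.76 to 422 and 439 (5.82, adjusted p = 4.5e-08). Hence the high levels of *Spp1*, *Il33*, *Anxa1*, *Ly6a* and *Clu* in DMBA+TAM stood in libraries where 6 of 10 epithelium genes had 3 counts or fewer, and the part of stromal cells and macrophages in them was not tested.

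In DMBA and TAM long *Ly6a* and *Anxa1* were high beside other markers. The epithelium sum was 13565 to 14442 normalized CPM in DMBA and 13861 to 15443 in TAM long, with each of the 10 genes above 3 counts. The fibroblast sum was 2230.5 to 2561 in DMBA and 1664 to 2083 in TAM long, above control, and the macrophage sum was 305 to 403 and 325 to 329. Of the 12 fibroblast genes 9 were higher and 1 lower than control in DMBA, and 6 were higher and 2 lower in TAM long. Smooth muscle summed to 7159.6 to 12073 in DMBA and 8361 to 12836 in TAM long against 1758 to 2075 in control. In each of these groups 6 of 6 genes were higher. Of all tested genes 24.5% were higher in DMBA and 23.2% in TAM long. The enteric glia sum was 20.9 to 33.1 in DMBA and 25.7 to 39.2 in TAM long against 6.87 to 8.14 in control. The lymphocyte sum was 463 to 1348 in DMBA and 1095 to 1490 in TAM long against 621 to 744 in control. Most of that sum was *Jchain*, with 451 and 1301 in DMBA, 1078 and 1481 in TAM long and 594 and 695 in control. Against control, 0 of the 6 lymphocyte genes rose and 3 fell, for DMBA and for TAM long alike. *Ly6g*, a relative of *Ly6a*, had 0 counts in both control libraries, 71 and 555 in DMBA and 165 and 393 in TAM long. The part of smooth muscle, glia, fibroblasts, lymphocytes or myeloid cells in the *Ly6a* and *Anxa1* levels of these groups was not tested.

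*Il33* was lower than in control beside a higher fibroblast sum in DMBA and beside a lower one in TAM short. Fibroblast genes summed to 1394 to 1544 in control, where *Il33* was 49.1 and 48.4, and to 2230.5 to 2561 in DMBA, where it was 5.18 and 2.13. In TAM short the fibroblast sum was 730.1 to 887 and *Il33* 19.998 and 10.3. The part of fibroblasts in these *Il33* levels was not tested. *Spp1* was at 1.24 or less in the 8 libraries in which macrophage genes summed to 209.5 to 403, and at 1900.3 or more where they summed to 6956 or more. Fibroblast and endothelium sums were split in the same way, at most 2561 and 122 against at least 33410.4 and 606. The part of macrophages, fibroblasts or endothelium in these *Spp1* levels was not tested. Mesothelium genes, of the gut's outer lining, summed to 5.31 to 13.97 in control and 9.25 to 9.501 in DMBA+TAM, where *Msln*, *Upk3b* and *Lrrn4* were at 0 counts and *Wt1*, which made up the sum, had risen from 0.565 and 0.361 to 9.501 and 9.25 (4.29, adjusted p = 0.000454).

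The other genes of fetal or regenerating epithelium, 10 of them tested, were split in DMBA+TAM. Against control 4 rose and 5 fell, with a median of -1.71 on the log2 scale, or -0.45 with the 3 genes at 0 counts in DMBA+TAM put at their bound, beside -0.17 over all tested genes, of which 35.3% were lower and 29% higher; with scaling by library size alone 4 rose and 4 fell. *Anxa8*, an annexin, went from 0.113 and 0.241 normalized CPM in control to 113 and 80.2 in DMBA+TAM (log2 fold change 8.98, adjusted p = 2.37e-05). *Il1rn*, which blocks the IL-1 receptor (4.51, adjusted p = 1.67e-05), and *Anxa3* (3.50, adjusted p = 3.98e-05) rose as well, as did *Gja1*, a gap junction gene named after its value was seen (2.26, adjusted p = 4.99e-06).

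*Areg*, *Msln* and *Krt7* of that list lay at or near 0 in DMBA+TAM. *Areg*, a ligand of the EGF receptor, had 17.4 and 23.1 normalized CPM in control and 0 counts in both DMBA+TAM libraries, at least 13.95-fold lower taking 3 counts per library as the floor. *Krt7*, a keratin of simple epithelia, went from 69.1 and 59.3 to 1.58 and 0.441 (-6.04, adjusted p = 2.4e-07). Chosen after its values were seen, *Sprr1a*, of the cornified envelope, had 0.339 and 0.843 in control, 19.9 and 17.3 in DMBA, 34.3 and 40.5 in TAM long and 0 counts in both DMBA+TAM libraries. In DMBA 7 of the 10 tested genes were higher than in control and the other 3 were not called (median 0.80 beside 0.07 over all genes, of which 24.5% were higher), and in TAM long 7 were higher and 3 not called (median 1.14 beside 0.05, with 23.2% of all genes higher).

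**Figure D5:**
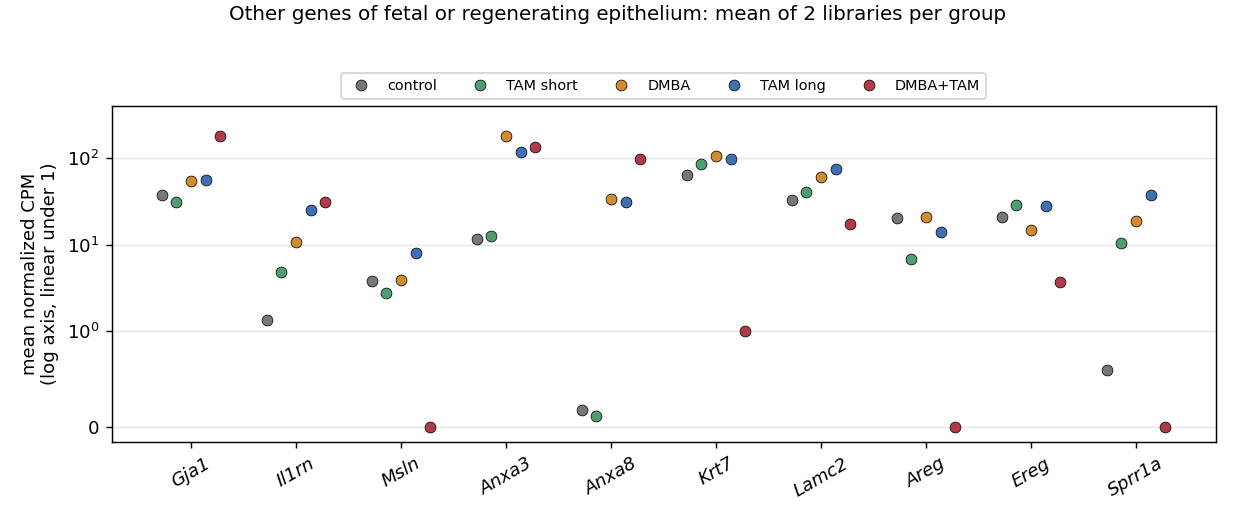
Mean normalized CPM (log axis, linear under 1) of 10 other genes of fetal or regenerating epithelium in the 5 groups, 2 libraries each. *Areg*, *Msln* and *Sprr1a* are at 0 in DMBA+TAM, where *Krt7* is at 1.012, while *Gja1*, *Il1rn* and *Anxa8* are highest there.

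Most target genes of YAP and TAZ were higher than in control in the 3 groups with high *Ly6a*. Of 22 targets 15 rose and 4 fell in DMBA+TAM against control, where 29% of all tested genes were higher and 35.3% lower, with a median of 2.17 beside -0.17 over all genes. In DMBA 15 rose and 3 fell (24.5% and 23.3% of all genes), with a median of 1.19 beside 0.07. In TAM long 15 rose and 3 fell (23.2% and 22.8% of all genes), with a median of 1.09 beside 0.05. *Ctgf*, for a matrix-associated growth factor, had 5.65 and 5.66 normalized CPM in control and 544 and 423 in DMBA+TAM (log2 fold change 6.41, adjusted p = 3.8e-08). *Ccdc80* (5.88, adjusted p = 7.19e-08) and *Cyr61*, a relative of *Ctgf* (5.00, adjusted p = 1.37e-07), followed, and *Ankrd1*, at 0 counts in control, had 5.28 and 10.6 in DMBA+TAM. *Foxf2* (-3.57, adjusted p = 0.0027), *Gadd45a* (-1.98, adjusted p = 1e-05) and *Nuak2* (-1.73, adjusted p = 3.08e-06) fell in DMBA+TAM. *Yap1* itself was not called there (-0.16, adjusted p = 0.362), and *Wwtr1*, which encodes TAZ, rose (2.99, adjusted p = 3.65e-07). Fibroblasts transcribe many of these genes too.

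Receptors of the proteins made by the 5 genes were also measured. Of 8 genes for osteopontin receptors 7 rose and 1 fell in DMBA+TAM against control, where 29% of all genes were higher and 35.3% lower. The integrin gene *Itgb5* rose from a mean of 52.2 to 389 normalized CPM (log2 fold change 2.90, adjusted p = 2.86e-07) and *Itgav*, its usual partner, from 47.6 to 167 (1.82, adjusted p = 3.99e-06), while *Itga8* fell (-1.72, adjusted p = 0.00953). The annexin A1 receptor genes *Fpr1* (4.83, adjusted p = 2.74e-06) and *Fpr2* (3.54, adjusted p = 0.000606) rose, and *Fpr3* had no count in any group. For IL-33, the receptor chain gene *Il1rl1* was at 8.59 and 11.1 in control and 5.81 and 11.9 in DMBA+TAM (-0.12, adjusted p = 0.779), so its groups overlapped, while the shared chain *Il1rap* rose (1.94, adjusted p = 2.76e-05). Of 4 genes for clusterin receptors, *Vldlr* (2.59, adjusted p = 3.39e-05) and *Trem2*, a receptor of macrophages (9.77, adjusted p = 3.42e-08), rose, and *Lrp2* and *Lrp8* were not called. *Trem2* had 2 and 0 counts in control and 216 and 265 in DMBA+TAM, so the size of its rise is uncertain.

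Relatives of the 5 genes are set beside the share over all tested genes in DMBA+TAM against control, 29% higher and 35.3% lower. Of 5 tested genes of the Ly6 family other than *Ly6a*, 2 rose and 1 fell. *Ly6c1*, which shares sequence with *Ly6a*, had 20.9 and 22.0 normalized CPM in control, 39.6 and 48.1 in DMBA (log2 fold change 1.03, adjusted p = 0.0025) and 377 and 309.7 in DMBA+TAM (3.997, adjusted p = 2e-07). *Ly6g* had 0 counts in control, TAM short and DMBA+TAM, 6.34 and 62.3 in DMBA and 14.2 and 38.6 in TAM long. Of 10 tested annexin genes other than *Anxa1*, 4 rose and 4 fell, with *Anxa5* up (3.84, adjusted p = 2.12e-08) and *Anxa4* down (-3.80, adjusted p = 1.54e-07), and their median of -0.27 turned to 0.22 with scaling by library size alone. Of 3 tested genes of the IL-1 family other than *Il33*, 2 rose, *Il1a* (3.36, adjusted p = 0.037) and *Il1rn* (values above), and *Il18*, made by gut epithelium, fell (-2.97, adjusted p = 0.000917). *Il1a* had 0 and 7 counts in control and 10 and 8 in DMBA+TAM, so its rise rests on few counts. Of 4 other genes of the osteopontin family, *Ibsp*, *Dmp1*, *Mepe* and *Dspp*, only *Dmp1* had enough counts to be tested, and it was not called (-0.25, adjusted p = 0.737).

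As a description of likeness, the 3 tested genes with the highest Pearson correlation of log2(normalized CPM + 1) over the 10 libraries were taken for each gene; libraries of a group share their treatment, so the points are not independent. For *Ly6a* they were *Tctn2* (r = 0.989), *Dpysl2* (0.983) and *Ptms* (0.983), and for *Anxa1* 2510009E07Rik (r = 0.994), *Nek7* (0.993) and *Nxpe5* (0.993). For *Il33* they included *Cemip* (r = 0.996) and *Peak1* (0.990), with *Cemip* at a mean of 8.93 normalized CPM in control, 0.805 in DMBA and 23.99 in DMBA+TAM. For *Spp1* they were *Tpm3-rs7* (r = 0.999), *Wfdc21* (0.999) and *Tbx5* (0.998), of which *Tbx5* had a mean of 6.74 in DMBA+TAM and no count in the other groups. These 3 genes had means of 6.74 to 122 in DMBA+TAM and of 0.580 or less in every other group. With *Spp1* also near the floor there, r rests on that single contrast and shows no likeness among the other groups. For *Clu* they were *Stk26* (r = 0.981), *Sh3bgrl3* (0.955) and *Cd83* (0.951), with lower correlations than for the other 4 genes.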

How the data were processed

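RNA-seq was made from poly-A mRNA of 10 organoid libraries (NEBNext Ultra kit). Reads were mapped with TopHat and counted per gene with HTSeq by the authors, and the raw counts were deposited as 1 table on GRCm38.p6, per the labels, of 47074 lines, of which 5 without counts were left out and 20677 of 47069 genes had no count. The authors also deposited FPKM, computed from these counts with a length per gene that, for the 5 genes, differs from the listed length. The table's other columns hold the authors' group means and comparisons (fold changes and p-values) and were not used. Members and gene lists were chosen with earlier results of these data known.

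Counts were filtered with filterByExpr, scaled by trimmed mean of M-values and fitted with edgeR 4.0.16 (R 4.3.3) as 5 group means over 10 libraries; 11 comparisons were tested by the quasi-likelihood test, with Benjamini-Hochberg adjustment over 16179 genes and a threshold of 0.05. The standard errors given with log2 fold changes were derived from that test, as the absolute log2 fold change divided by the square root of its F statistic. The fit was tested on simulated data, with no outcome reported here. Alternatives were DESeq2 1.42.0, library size only, no filter, only the groups compared, a replicate block, limma 3.58.1 on log2(FPKM + 0.1) and log2(FPKM + 1), leaving out each library, and, for the interaction, TAM short in place of TAM long. With 2 libraries a group, an exact two-sided permutation test of 1 gene cannot go below 0.333, so none is given. Named were the 5 genes, *Ppp2r1a*, the receptors and relatives, up to 3 rises and 3 falls per list, and the 3 nearest patterns; results for some genes are not reported here. Whether replicate numbers pair the samples is not given, and the main fit used no pairing. Deviations of same-numbered libraries correlated most between DMBA and TAM long (0.26). Totals per library set the precision, and a floor of 3 counts covers counting error only. Promoters were matched by symbol to a RefSeq table, and protein sequences were not used here. Plots used matplotlib 3.10.9, and tables Python 3.11.15 with pandas 2.3.3.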

Additional observations from a re-analysis of the deposited data

Results flagged for a closer look

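For 4 of the 5 genes the change from DMBA to DMBA+TAM differed from the change from control to TAM long by the test of that difference, an interaction term in the edgeR fit, by which 48.2% of all tested genes were called. The difference of the log2 changes was 12.98 for *Spp1* (adjusted p = 3.77e-08), 8.91 for *Il33* (adjusted p = 9.2e-07), -2.44 for *Anxa1* (adjusted p = 0.000164) and -2.06 for *Ly6a* (adjusted p = 1.12e-05). With TAM short in place of TAM long the value for *Anxa1* turned to 0.94 (adjusted p = 0.0393), so its direction rests on which tamoxifen group is used, and that for *Ly6a* was -0.81. With either tamoxifen group the difference crosses title letters, so tamoxifen and letter cannot be told apart in it. Groups of 2 libraries are too small for a check of single libraries that stand apart.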

How the results depend on the processing

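Of 626 values of single genes under the alternatives, 572 kept their direction and their side of the threshold, 20 lost the call, 26 gained it and 8 reversed. The cause was not tested for any of the following. The 2 calls in TAM short against control became 4 with library size only, without the filter, with only the groups compared and with the replicate block, and ranged from 0 to 2 when a library was left out (0 without control 1, control 2 or TAM short 2); over all genes 2317 calls became 2184, 3294, 4317 and 2322 in those 4 settings and 981, 784 and 669 without those 3 libraries. The single call in TAM long against DMBA became 2 without the filter and 0 with only the groups compared, and ranged from 0 (without TAM long 1) to 2 (without DMBA 1); over all genes 437 calls became 1615, 29, 58 and 1036. *Ly6a* in DMBA+TAM against DMBA turned to 0.045 with library size only and with limma on both scales. *Clu* in DMBA against TAM short ranged from -1.18 (without DMBA 2) to 1.05 (without DMBA 1). The interaction turned to 0.94 for *Anxa1* and to -1.12 for *Clu* with TAM short in place of TAM long, and for *Clu* it ranged from -0.78 (without control 2) to 1.78 (without DMBA 2), with -0.44 without DMBA 1. The replicate block changed no other count of calls by over 1.5 times; deviations of same-numbered libraries correlated from -0.041 to 0.26 over 10 pairs of groups. Library size only moved the calls over all genes from 4687 higher and 5709 lower to 6254 and 3755 in DMBA+TAM against control, from 3961 and 3774 to 5587 and 2257 in DMBA against control, and from 3760 and 3684 to 5538 and 2148 in TAM long against control. Leaving out a library leaves a group of 1, whose spread is taken from the others. The DMBA+TAM totals are the smallest, so low genes there rest on few counts.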
